A study of Mus musculus with 4 samples.

Results

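MEF2 proteins are transcription factors that activate muscle genes together with the MyoD family, and the class IIa histone deacetylases (HDACs) bind MEF2 directly and hold its target genes silent in myoblasts. Phosphorylation of class IIa HDACs by calcium-regulated and related kinases lets 14-3-3 proteins hold them in the cytoplasm, which frees MEF2. Both families therefore sit at the switch between proliferation and differentiation in muscle. CUGBP1, the product of *Celf1*, binds GU-rich elements in mRNAs and promotes their decay.

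The transcripts of 8 genes were followed: the activators *Mef2a*, *Mef2b*, *Mef2c* and *Mef2d*, and the repressors *Hdac4*, *Hdac5*, *Hdac7* and *Hdac9*. They were chosen by family, through probe sets annotated to exactly 1 of these genes. No measured value entered that rule, but earlier results of these data were known when the genes were chosen. Of the 8 genes, 7 had such a probe set, and *Mef2d* had 2, so that 8 of 21044 single-gene probe sets are described. *Mef2b* is named only by a probe set it shares with *Borcs8* and *Gm45929*, and no value is given for it. The array cannot separate splice forms of a gene, such as the short form of HDAC9 that lacks the deacetylase domain.

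To find which mRNAs associate with CUGBP1, RNA was isolated from immunoprecipitates of proliferating C2C12 (LKO1) cells and hybridized to Affymetrix Mouse Gene 1.0 ST arrays. The tested precipitates were made with the monoclonal CUGBP1 antibody 3B1 (CUGBP1 IP, 2 arrays) and the controls with normal IgG (control IgG, 2 arrays). C2C12 is a mouse myoblast line, and all 4 samples came from its LKO1 derivative, a single stable line that carries an empty lentivirus vector and was kept in puromycin. The cells were subconfluent myoblasts, and whether the 2 precipitates of a group came from separate cultures is not stated. Arrays of input RNA were not analysed here, so a scarce transcript and an unbound one cannot be told apart where the intensity is low.

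Every value is an intensity divided by the 5th percentile of the same array, so that a probe set without transcript reads about 1. The array medians were 1.31 and 1.47 for the CUGBP1 IP, against 1.08 and 1.22 for control IgG. Control IgG replicate 2 was the brighter control, with a 95th percentile of 5.96 against 2.36 in replicate 1, and both control values of each member are given. The background limit of an array, the 95th percentile of its olfactory and vomeronasal receptor probe sets, was 1.23 and 1.29 for the CUGBP1 IP, against 1.09 and 1.16 for control IgG. Of 8 myoblast markers 6 were above that limit on all 4 arrays, *Myod1*, *Myf5* and *Des* among them, against 1 of 9 markers of differentiated muscle. Of the other cell types, 1 of 5 neuron markers, 0 of 2 blood markers and 0 of 3 adipocyte markers were above it on all 4 arrays.

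Of these genes *Hdac7* and *Mef2d* exceeded control IgG by most in the CUGBP1 immunoprecipitates, and both were among the 5% of probe sets with the largest signal-to-negative ratios, the share by which the study defined association. The limit is that of the probe sets ranked here, so a gene past it need not be in the study's own set. The ratio sets the mean of the precipitates with the CUGBP1 antibody over that of the controls. It was 4.51 for *Hdac7*, a deacetylase best known from endothelium and thymocytes, and 4.15 for *Mef2d*, a MEF2 factor present in myoblasts before differentiation. *Mef2a* followed with 2.43, just outside the top 5%, which began at 2.57. Among probe sets above background on at least 2 arrays the top 5% began at 3.24, which *Hdac7* and *Mef2d* also exceeded. *Hdac5* and *Hdac4* had ratios of 1.69 and 1.64, and *Mef2c* and *Hdac9* ratios of 1.15 and 1.12, below the median of 1.22 over all tested probe sets.

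No member passed the test across all probe sets. limma called 0 of the 7 genes higher and 0 lower at an adjusted p under 0.05, against 1.95% of all probe sets called higher and 0.138% called lower. At an unadjusted p under 0.05, 3 of the 7 were higher (*Mef2d*, *Hdac7* and *Hdac4*), against 28.6% of all probe sets. The top 5% held 2 of the 7, against 5% of all probe sets by construction. For 7 of the 7 the lower CUGBP1 IP value exceeded the higher control IgG value, but this was so for 66.3% of all probe sets.

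**Figure D1:**
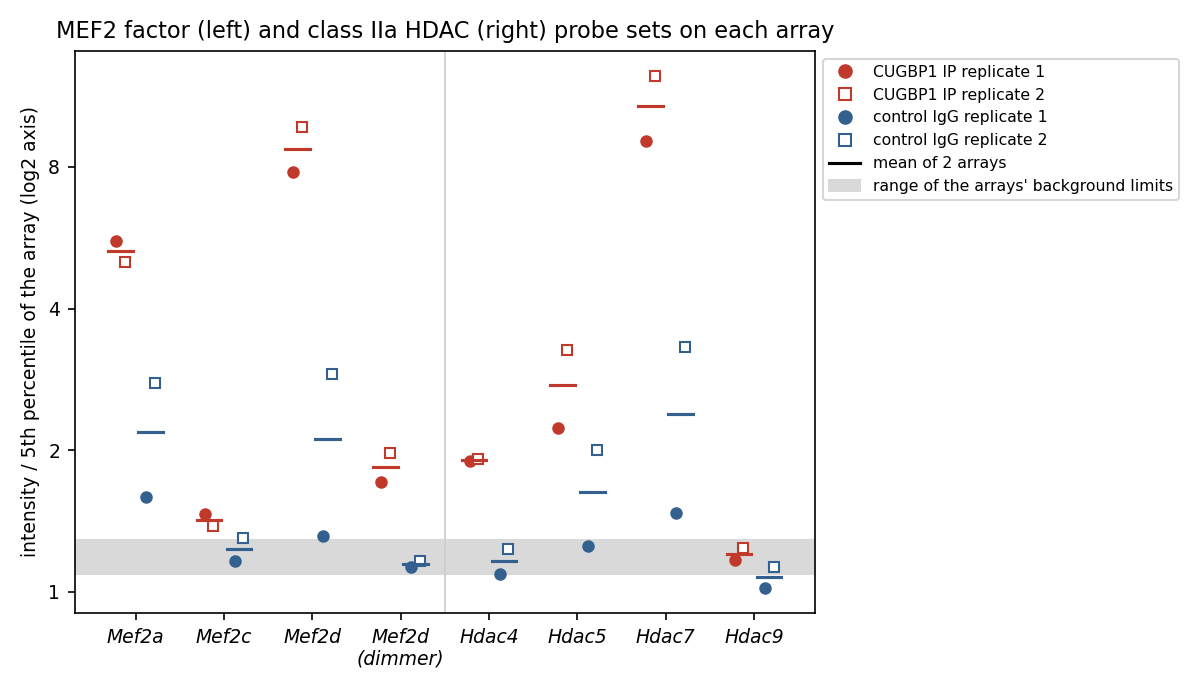
Intensity of the 8 probe sets as a multiple of the 5th percentile of each array (log2 axis), with 1 point per array, bars at the mean of 2 arrays and a grey band from the lowest to the highest background limit of the arrays (1.09 to 1.29). *Mef2d* and *Hdac7* stand highest in the CUGBP1 IP, at 7.80 to 12.47, while all 4 values of *Hdac9* lie at or under the limit of their own array.

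Among the activators, *Mef2d* (probe set 10493177) read 7.80 and 9.71 in the CUGBP1 IP, against 1.31 and 2.91 with control IgG. Both precipitates with the CUGBP1 antibody were well above both controls, and the controls differed from each other by a larger factor than the precipitates did. The means were 8.76 ± 1.35 for the CUGBP1 IP and 2.11 ± 1.13 with control IgG (SD, n = 2 per group), and the log2 difference was 2.16 (SE 0.83, limma adjusted p = 0.106). Taken against a single control, the ratio was 6.68 with control IgG replicate 1 and 3.01 with the brighter replicate 2.

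*Mef2d* was also measured by a dimmer probe set (10493189), which the annotation ties to cDNA accessions other than that of the brighter one. It read 1.71 and 1.97 in the CUGBP1 IP, against 1.13 and 1.16 with control IgG. The groups did not overlap here either, and control IgG replicate 2 was not above its background limit. The ratio was 1.61 (log2 difference 0.68, SE 0.25, limma adjusted p = 0.0908), lower than the 4.15 of the brighter probe set. The difference between the probe sets, taken within each array on the log2 scale, averaged 2.25 for the CUGBP1 IP and 0.77 for control IgG. By array it was 2.19 and 2.30 in the CUGBP1 IP, against 0.21 and 1.33 with control IgG, so the controls lay far apart. With 2 arrays per group an exact permutation test of such a value cannot give a two-sided p under 0.333.

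*Mef2a*, which encodes a broadly expressed MEF2 factor, read 5.57 and 5.03 in the CUGBP1 IP, against 1.59 and 2.78 with control IgG (probe set 10564451). The CUGBP1 IP arrays were close to each other and above both controls. The means were 5.30 ± 0.382 in the CUGBP1 IP and 2.19 ± 0.841 with control IgG (SD, n = 2 per group), and the log2 difference was 1.33 (SE 0.70, limma adjusted p = 0.177). The 95% interval of that difference ran from -0.031 to 2.70 and so included 0.

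*Mef2c*, the MEF2 factor needed for maturation of muscle and heart, was close to background. It read 1.46 and 1.38 in the CUGBP1 IP, against 1.16 and 1.30 with control IgG (probe set 10406434). All 4 values were above the limits of their arrays by little, and the higher control was close to the lower CUGBP1 IP array. The log2 difference was 0.21 (SE 0.20, limma adjusted p = 0.394), with a 95% interval from -0.19 to 0.61.

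Among the class IIa HDACs, *Hdac7* (probe set 10432006) read 9.09 and 12.47 in the CUGBP1 IP, against 1.47 and 3.31 with control IgG. It had the highest CUGBP1 IP values and the largest log2 difference of the members, with a wide interval. The means were 10.8 ± 2.39 in the CUGBP1 IP and 2.39 ± 1.30 with control IgG (SD, n = 2 per group), and the log2 difference was 2.27 (SE 0.94, limma adjusted p = 0.124, 95% interval 0.44 to 4.11). The ratio was 7.33 with control IgG replicate 1 as the only control and 3.26 with replicate 2 as the only control.

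*Hdac4*, which encodes a class IIa deacetylase, had low but well separated values. It read 1.90 and 1.91 in the CUGBP1 IP, against 1.09 and 1.23 with control IgG (probe set 10356628). The CUGBP1 IP arrays were nearly equal and clear of both controls, of which replicate 1 was at background. The log2 difference was 0.72 (SE 0.26), and its limma adjusted p of 0.0872 was the lowest of the members. That place depended on the setting of the fit. With a robust intensity trend the limma adjusted p was 0.0681 for *Mef2d* and 0.0737 for *Hdac7*, against 0.0971 for *Hdac4*. With each array divided by its median, *Hdac4* was called higher (log2 difference 0.43, limma adjusted p = 0.0212), and it was the only member called under any of the 4 scalings of the arrays.

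*Hdac5*, which like *Hdac4* shuttles between nucleus and cytoplasm under calcium-dependent kinases, read 2.23 and 3.26 in the CUGBP1 IP, against 1.25 and 2.00 with control IgG (probe set 10391577). The gap between the lower CUGBP1 IP array and the higher control was small beside the distance between arrays of 1 group. The log2 difference was 0.77 (SE 0.41, limma adjusted p = 0.181). *Hdac9*, which in muscle is best known for a short form that represses MEF2 without deacetylase activity, read 1.17 and 1.24 in the CUGBP1 IP, against 1.02 and 1.13 with control IgG (probe set 10399973). None of its 4 values was above background, so its ratio of 1.12 and its log2 difference of 0.17 describe values near the floor and are not read as a fold.

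**Figure D2:**
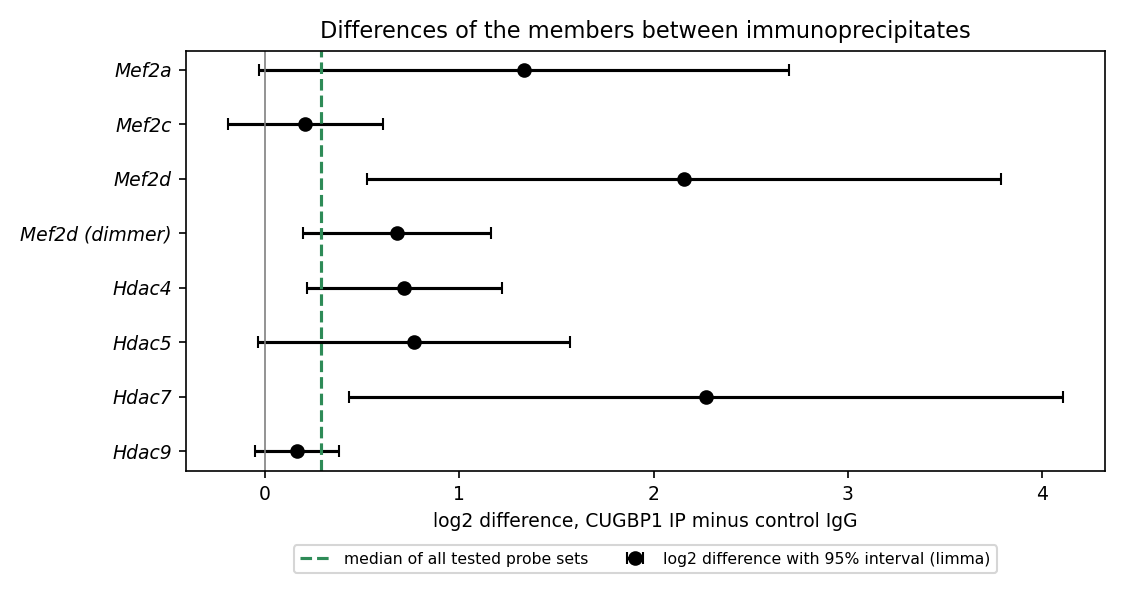
Log2 difference, CUGBP1 IP minus control IgG, of each probe set, with bars for limma's 95% intervals. The dashed line marks the median of all tested probe sets (0.29), and the intervals of *Mef2d*, its dimmer probe set, *Hdac4* and *Hdac7* exclude 0 before adjustment over probe sets.

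In descending order of log2 difference the genes were *Hdac7*, *Mef2d*, *Mef2a*, *Hdac5*, *Hdac4*, *Mef2c* and *Hdac9*. Neighbours were compared by their log2 difference within each array, which does not change when an array is multiplied by a constant. It is not free of array brightness, since 2 values near the floor on a dim array leave little room for a difference. The order of the genes was set from the same data, so the mean difference of each pair was bound to be higher in the CUGBP1 IP. How often pairs of other probe sets separate was not counted, so the comparison is a description only. *Hdac4* minus *Mef2c* was 0.38 and 0.47 in the CUGBP1 IP, against -0.090 and -0.080 with control IgG. *Mef2d* minus *Mef2a* was 0.49 and 0.95 in the CUGBP1 IP, against -0.28 and 0.066 with control IgG. The groups did not overlap for these pairs, nor for *Hdac7* with *Mef2d* (0.22 and 0.36 in the CUGBP1 IP, against 0.17 and 0.19 with control IgG) and *Mef2a* with *Hdac5*. They overlapped for *Hdac5* with *Hdac4* and for *Mef2c* with *Hdac9*, whose place in the order is set by values at background. An exact permutation test of 2 arrays against 2 cannot pass the threshold for any of these pairs. Activators and repressors were not separated, since each family held 1 gene in the top 5% and 1 gene with a ratio below the median of all probe sets. The median ratio was 2.43 over the 3 *Mef2* genes and 1.67 over the 4 class IIa HDAC genes, against 1.22 over all tested probe sets. That 1.22 takes in probe sets at background. Over probe sets above background on at least 2 arrays the median log2 difference was 0.54, against 0.29 over all tested probe sets.

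The rank of a probe set within its own array does not depend on the brightness of that array. *Mef2d* stood at percentile 95.6 and 95.2 of the tested probe sets in the CUGBP1 IP, against 85.2 and 91.2 with control IgG. *Hdac7* stood at 96.3 on both CUGBP1 IP arrays, against 90.0 and 92.6 with control IgG. *Hdac4* stood at 73.2 and 65.0 in the CUGBP1 IP, against 55.8 and 52.7 with control IgG. These 3 genes thus ranked higher on both CUGBP1 IP arrays than on either control. The share of all tested probe sets with such a separation of ranks was not counted, so it is not read as particular to these genes.

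The remaining members did not rank higher on both CUGBP1 IP arrays than on either control. *Mef2a* stood at percentile 93.7 and 89.7 in the CUGBP1 IP, against 92.1 and 90.7 with control IgG, so its ranks overlapped although its intensities did not. The ranks of *Hdac5* overlapped as well, with 79.0 and 82.8 in the CUGBP1 IP, against 81.6 and 83.5 with control IgG. *Mef2c* ranked lower on both CUGBP1 IP arrays, with 58.8 and 43.1 in the CUGBP1 IP, against 71.5 and 59.0 with control IgG. *Hdac9*, at background, stood at 32.3 and 30.3 in the CUGBP1 IP, against 15.6 and 34.1 with control IgG.

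**Figure D3:**
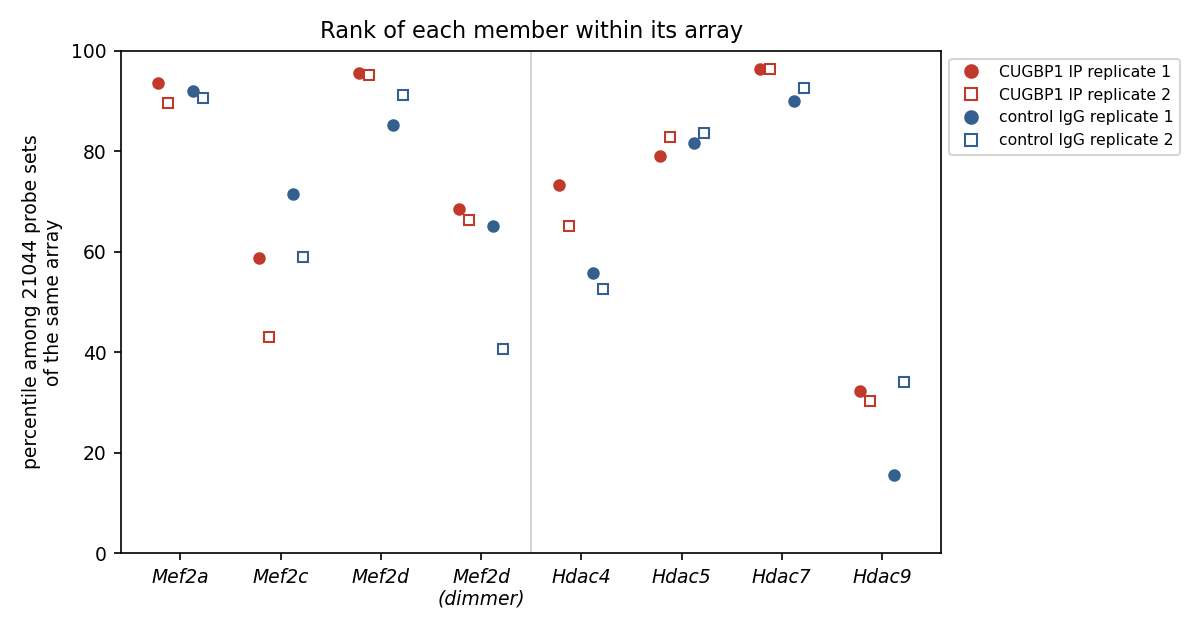
Percentile of each probe set among the 21044 tested probe sets of the same array, with 1 point per array. The points of *Mef2d*, *Hdac4* and *Hdac7* are higher in the CUGBP1 IP than in control IgG, those of *Mef2a* and *Hdac5* overlap, and those of *Mef2c* are lower in the CUGBP1 IP.

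How the arrays are scaled decided the sign for some members. The median log2 difference over all tested probe sets was 0.29 as deposited, 0.27 with arrays scaled to receptor probe sets, 0.00066 with arrays divided by their medians and -0.016 with quantile normalization. Under those 4 scalings *Mef2d* kept log2 differences from 0.92 to 2.16 and *Hdac7* from 0.91 to 2.27. *Mef2a* stayed above 0 but read 0.066 with quantile normalization, and *Hdac4* ran from 0.26 to 0.72. *Hdac5* turned to -0.070 with quantile normalization. *Mef2c* turned to -0.079 with arrays divided by their medians and to -0.21 with quantile normalization, and *Hdac9* to -0.12 with arrays divided by their medians. As deposited, *Mef2c* and *Hdac9* already lay under the median of all probe sets, with 0.21 and 0.17 against 0.29.

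**Figure D4:**
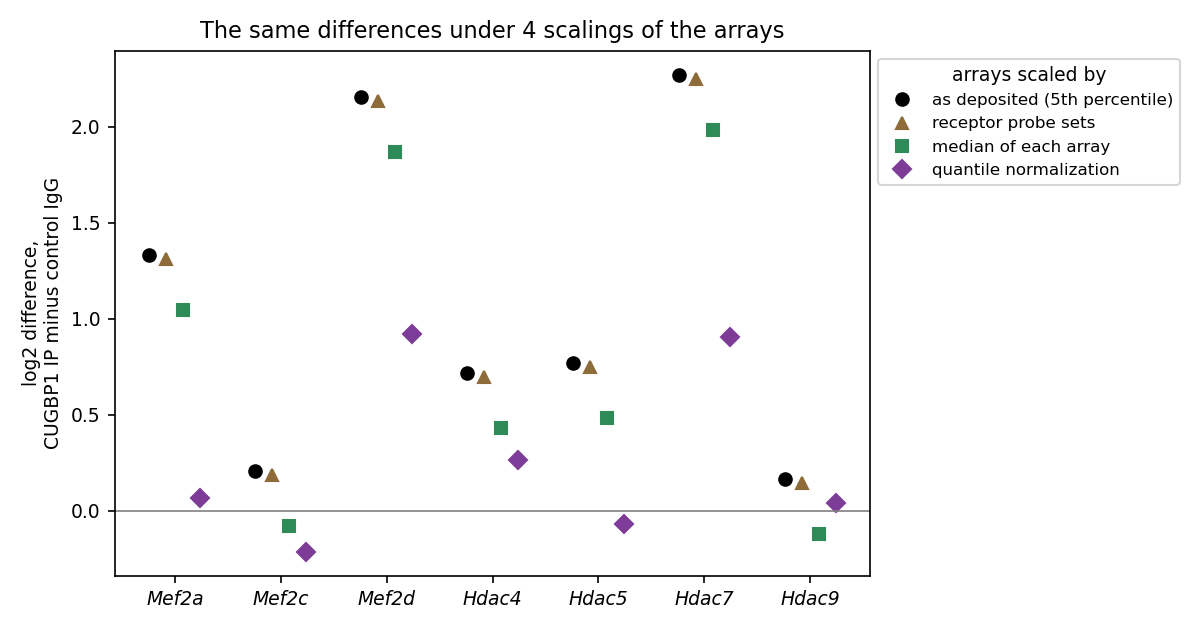
Log2 difference, CUGBP1 IP minus control IgG, of the 7 genes (brightest probe set) with arrays as deposited, scaled to receptor probe sets, divided by their medians or quantile normalized. *Mef2d* and *Hdac7* stay at or above 0.91 under all 4, while *Mef2a* and *Hdac5* fall close to 0 with quantile normalization.

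The probe sets of other genes whose 4 values were most like those of *Mef2d* belonged to *Pafah1b2*, *Dusp1* and *Nr4a2*, by Euclidean distance over the log2 values of the 4 arrays (distances 0.19, 0.21 and 0.21). *Dusp1* encodes a phosphatase of MAP kinases and *Nr4a2* an orphan nuclear receptor. The probe sets most like that of *Hdac7* belonged to *Cdc25b*, a phosphatase of mitotic entry, *Tubb2a*, a beta-tubulin, and *Atxn10* (distances 0.17, 0.18 and 0.20). Their signal-to-negative ratios ran from 4.10 for *Dusp1* to 4.71 for *Cdc25b*.

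The other genes of the pathway were described in 7 lists: kinases and phosphatases of MEF2, kinases of class IIa HDACs, 14-3-3 and transport proteins, corepressors, MEF2 partners, MEF2 targets and the remaining deacetylases. Of 114 measured genes in these lists limma called 4 higher (3.51%, against 1.95% of all probe sets) and 0 lower, and 16 of the 114 were in the top 5%. Among probe sets above background on at least 2 arrays, 494 of 12686 were called higher, so the 3.51% is not read as an excess. The top 5% of that filtered set began at a ratio of 3.24, and the list genes past that limit were not counted. Without the intensity trend, or with any 1 array left out, limma called 0 probe sets, these 4 genes included (4757 and 1062 to 6085 at an unadjusted p under 0.05).

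The largest ratios of the kinases and phosphatases that act on MEF2 were those of *Ppp3cb* and *Mapk14*. *Mapk14*, the p38 alpha kinase that phosphorylates MEF2 in differentiating myoblasts, read 11.07 and 12.22 in the CUGBP1 IP, against 1.39 and 1.66 with control IgG, and rose (log2 difference 2.94, SE 0.85, limma adjusted p = 0.0377). *Rcan2*, an inhibitor of calcineurin, also rose, with 3.83 and 2.62 in the CUGBP1 IP, against 1.09 and 1.47 with control IgG (log2 difference 1.32, limma adjusted p = 0.0439). *Ppp3cb*, a catalytic subunit of calcineurin, reached a ratio of 8.70 but was not called (limma adjusted p = 0.0685). Of the 19 measured genes of that list limma thus called 2 higher and 0 lower, and the list median was a ratio of 1.68. *Ppp1ca*, the brightest gene of the list that was not called, had a ratio of 1.68, which was 3.96 with control IgG replicate 1 as the only control and 1.06 with replicate 2.

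Of 19 kinases of class IIa HDACs, limma called 0 higher and 0 lower, with 7 higher at an unadjusted p under 0.05 (28.6% of all probe sets). *Mark2*, which can phosphorylate the 14-3-3 sites of class IIa HDACs, was both the highest in ratio and the brightest, with 5.11 at its brighter probe set and 2.04 at the other (limma adjusted p = 0.114 and 0.165). The list median was 1.58 and 3 genes were in the top 5%.

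The 14-3-3 and nuclear transport transcripts were the list with the highest median ratio, 2.60 over 10 genes, of which 5 were in the top 5%. limma called 0 of them higher and 0 lower, with 5 higher at an unadjusted p under 0.05, against 28.6% of all probe sets. *Kpna2*, an importin alpha, read 20.24 and 33.85 in the CUGBP1 IP, against 1.89 and 4.28 with control IgG, a ratio of 8.77 (limma adjusted p = 0.107). Its 3 probe sets had ratios from 8.49 to 8.77, and whether they share cross-hybridizing sequence was not tested. *Ywhaz*, which encodes 14-3-3 zeta, was the brightest, with ratios of 3.83 and 2.74 at its 2 probe sets. At the brighter one it was 7.25 with control IgG replicate 1 as the only control and 2.61 with replicate 2.

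Of 12 measured corepressor partners of class IIa HDACs, limma called 1 higher and 0 lower. That was *Rfxank*, an ankyrin repeat protein that binds class IIa HDACs, with 2.27 and 2.79 in the CUGBP1 IP, against 1.08 and 1.22 with control IgG (log2 difference 1.13, limma adjusted p = 0.0314). *Tbl1x*, a subunit of the NCoR and SMRT corepressor complexes, had the highest ratio of the list, 3.72 (limma adjusted p = 0.120), and *Ctbp1*, a corepressor, was the brightest one not called, with 2.39 (limma adjusted p = 0.313). The ratio of *Ctbp1* was 5.27 with control IgG replicate 1 as the only control and 1.54 with replicate 2, and that of *Tbl1x* was 5.79 and 2.74. The list median was 1.85.

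Of 15 coactivators and other nuclear partners of MEF2, limma called 0 higher and 0 lower, with 5 higher at an unadjusted p under 0.05 against 28.6% of all probe sets, and the list median was 1.48. *Nr3c1*, the glucocorticoid receptor, had the highest ratio, 2.80 (limma adjusted p = 0.0558), and *Wwtr1*, the Hippo pathway coactivator TAZ, was the brightest, with 2.03 (limma adjusted p = 0.196).

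Of 28 MEF2 target genes in muscle, limma called 1 higher and 0 lower, and the list median of 1.24 was close to the 1.22 of all probe sets. Only 7 of the 28 were above background on all 4 arrays. The called gene was *Myog*, the myogenic bHLH factor whose promoter MEF2 activates, with 12.17 and 6.35 in the CUGBP1 IP, against 1.19 and 1.31 with control IgG (limma adjusted p = 0.0170). *Jun*, an AP-1 subunit whose promoter carries a MEF2 site, reached a ratio of 7.27 (limma adjusted p = 0.0831) and was the brightest one not called. The study found *Jun* enriched with the CUGBP1 antibody by RT-PCR.

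**Figure D5:**
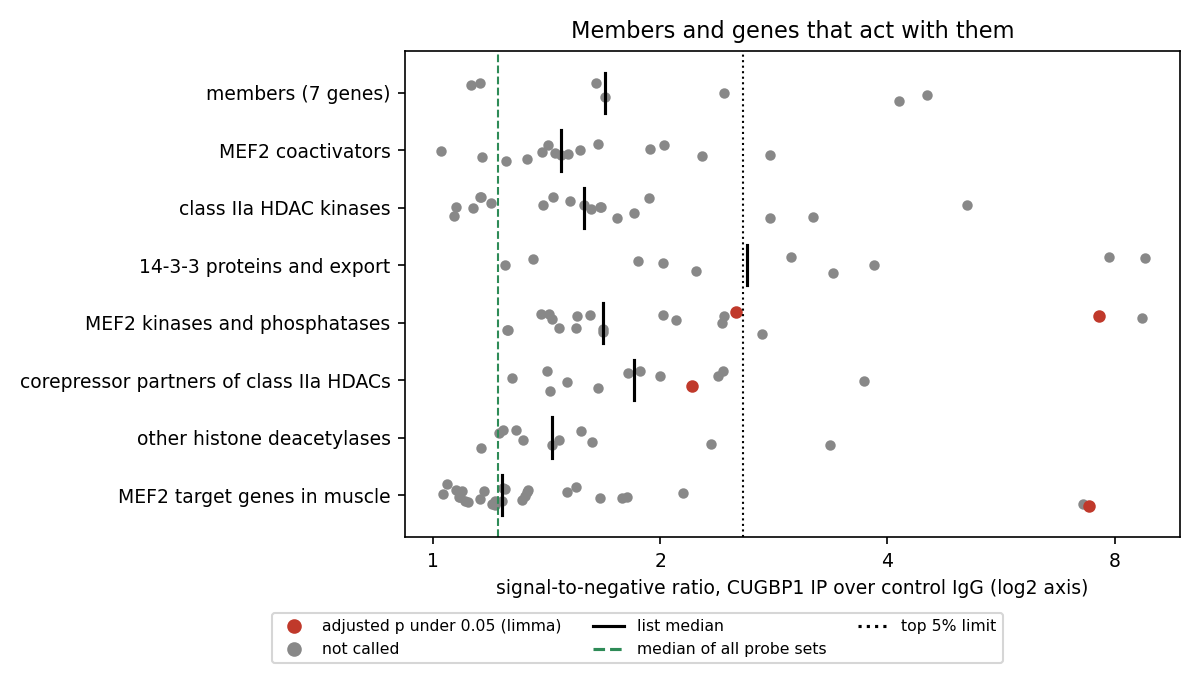
Signal-to-negative ratio (log2 axis) of the 7 members and of the genes of 7 lists, with 1 point per gene at its brightest probe set, red for genes called by limma. The black bar of each row is its median, the dashed line the median of all probe sets (1.22) and the dotted line the start of the top 5% (2.57), which *Mef2d* and *Hdac7* exceed.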

How the data were processed

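Deposited values are linear intensities, which the authors divided by the 5th percentile of their own array. The program that summarised the probe sets is not given in the sources used here. Of 25175 probe sets, the platform annotation pairs 21044 with 1 gene, 1492 with several and 2639 with none, and only those with 1 gene were tested. Symbols of 20959 were updated through a RefSeq gene table. The brightest probe set over the 4 arrays stands for a gene.

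Log2 values were compared with limma 3.58.1 in R 4.3.3 (lmFit and trended eBayes), and two-sided p-values were adjusted by Benjamini-Hochberg over all 21044 probe sets, with a threshold of 0.05, no offset and no filter. The SE follows the pooled trend over intensity, not the spread of the single probe set. *Hdac8*, with equal arrays within each group, still had an SE of 0.13. p-values thus measure only this pooled spread between these samples, which may be technical, and not how closely the arrays of 1 gene agree. With 2 arrays per group the precision is limited. Medians and shares of lists are descriptions. Members and lists were chosen with earlier results of these data known. Named genes were all members and, from each list, the genes called (at most 6), the one with the highest ratio and the brightest one not called. Alternatives covered scaling, offset, floor, trend, filter, probe set, left-out arrays and replicate number. The script was tested on simulated data with less noise than these arrays, which checks the code and not the power of the fit. Counts of GU-rich motifs in transcripts and comparisons of protein sequences were planned and not run.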

Additional observations from a re-analysis of the deposited data

How the results depend on the processing

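The number of members called higher by limma was 0, and 0 under every alternative except the next ones. It was 1 with arrays divided by their medians (*Hdac4*). With the replicate number as a block it was 6 (all but *Mef2c*), and 11809 of all probe sets were called higher. No source says that arrays of the same number came from 1 lysate. The replicate 1 minus replicate 2 differences of the 2 groups correlated over probe sets (r = 0.64), which are not independent, and replicate 2 was the brighter array of both groups. No member was called lower under any alternative. Of all probe sets, 411 were called higher and 29 lower. The higher calls numbered 1362 with arrays divided by their medians and 763 with an offset of 1. With the floor of 1 subtracted and 0.25 added, or without the intensity trend, 0 were called higher and 0 lower, with 4563 and 4757 at an unadjusted p under 0.05. The lower calls numbered 18 with quantile normalization, 10 with a robust trend and 0 among probe sets above background on at least 2 arrays. With any 1 array left out the higher and the lower calls both numbered 0 (range 0 to 0), with 1062 to 6085 at an unadjusted p under 0.05. Such a fit has 1 residual degree of freedom and assumes that the lone array varies like the other group. The members in the top 5% numbered 2, except 1 with the dimmer probe set of *Mef2d*, 3 without CUGBP1 IP replicate 2 (range 2 to 3 with 1 array left out) and 3 in the top 10%, and *Mef2a* was the third. Signs turned for *Mef2c* (-0.079 with arrays divided by their medians and -0.21 with quantile normalization), *Hdac9* (-0.12 with arrays divided by their medians) and *Hdac5* (-0.070 with quantile normalization).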

Other observations

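The deacetylases outside class IIa had ratios from 1.16 to 3.36. Of 11 measured, which include class I, IIb and IV HDACs and sirtuins, limma called 0 higher and 0 lower, with 3 higher at an unadjusted p under 0.05 (28.6% of all probe sets), and the median ratio was 1.44. *Sirt6*, a chromatin-bound sirtuin, read 3.63 and 5.87 in the CUGBP1 IP, against 1.20 and 1.63 with control IgG, a ratio of 3.36 (limma adjusted p = 0.0501). *Hdac2*, a class I enzyme and the brightest of this list, read 5.64 and 6.54 in the CUGBP1 IP, against 1.78 and 3.44 with control IgG, a ratio of 2.33 (limma adjusted p = 0.221).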
